A study of Mus musculus with 18 samples.

Results

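Cells of the gastrulating mouse embryo that carried Foxa2 transcripts and no Mesp1 transcript were compared between embryonic day (E) 6.75 and E7.5. A cell was taken as a Foxa2 cell when it had at least 2000 nuclear transcripts, under 5 transcripts per 10000 of the visceral endoderm genes Ttr, Apoa1 and Spink1 together, at least 1 Foxa2 transcript and 0 Mesp1 transcripts. Of the 922 cells that passed the depth and visceral endoderm limits, 127 met the rule, 79 of 495 at E6.75 and 48 of 427 at E7.5. The levels of these 5 genes, which chose the cells, are therefore described and not tested.

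All embryos were wild-type C57BL/6 mice, with the tissue given as whole embryo. At E6.75, embryos had the extraembryonic part cut away and were dissociated one by one, and cells were picked by hand into CEL-Seq2 libraries. At E7.5, the cut lay under the chorion, so extraembryonic mesoderm stayed on embryos that were pooled from 1 or 2 litters, and cells were sorted by flow cytometry into mCEL-Seq2 libraries. In both methods a tag on each transcript names its cell, and a random sequence, the UMI (unique molecular identifier), lets amplified copies be counted once. Stage cannot be told apart from dissection, hand picking against sorting, and protocol version, and this holds for every stage difference given here. The labels do not say which embryos a library came from, so p-values measure the spread between libraries.

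Foxa2 encodes a forkhead transcription factor that opens chromatin for other factors. In the gastrula it marks the anterior primitive streak and what leaves it, which is definitive endoderm, the node and the notochord, and it is also made by visceral endoderm. Mesp1 is a transcription factor gene of nascent mesoderm. Foxa2 lies on chromosome 2 at 148042877 to 148046969 (minus strand) in the GENCODE vM21 annotation of GRCm38. The build the authors aligned to is not given in the sources used here.

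The rule let in cells of very different Foxa2 content. A single Foxa2 UMI was found in 30 of 79 cells (38.0%) at E6.75 and in 18 of 48 cells (37.5%) at E7.5, and at least 10 UMIs in 22 and 15 cells. The highest count was 83 UMIs in a cell at E6.75 and 71 at E7.5. In the excluded cells with Mesp1 transcripts, Foxa2 was detected in 18 of 47 cells at E6.75 (38.3%, exact 95% interval 24.5 to 53.6, median depth 62496 transcripts). At E7.5 it was detected in 12 of 137 such cells (8.76%, interval 4.61 to 14.8, median depth 39597). Among cells without Mesp1 the shares were 17.6% (14.2 to 21.5, median depth 39754) and 16.6% (12.5 to 21.3, median depth 26201). The 47 Mesp1 cells of E6.75 came from 3 libraries, in which the share among cells without Mesp1 was 29.5% (59 of 200, interval 23.3 to 36.3, median depth 52721). These intervals cover counting error only. At the visceral endoderm limit, the highest members had 4.30 and 3.75 transcripts per 10000 at the 2 stages, and the lowest excluded cells had 6.49 and 40.1. This limit took out 32 cells at E6.75 and 1 at E7.5 that met the rest of the rule.

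The 79 E6.75 cells came from 6 libraries (3 to 25 cells each). The 48 E7.5 cells came from 11 of 12 libraries, of which 8 had at least 3 Foxa2 cells (3 to 11 each, 44 cells in all) and entered the tests. Summed over its Foxa2 cells, an E6.75 library held 139336 to 1644166 transcripts, against 47150 to 422495 for E7.5. The median depth of a Foxa2 cell was 57335 transcripts at E6.75 and 35844 at E7.5. On the log2 scale the library medians averaged 15.69 (SD 0.277, n = 6) and 14.99 (SD 1.12, n = 8), a difference of -0.70 (two-sided exact permutation test over libraries, p = 0.145). With library means in place of medians the difference was -0.72 (exact permutation p = 0.0466). The share of mitochondrial transcripts, as a library median over Foxa2 cells, was 11.1 to 18.2% in E6.75 libraries, against 7.97 to 12% for E7.5. The 127 cells used 93 distinct barcodes, and 26 barcodes recurred in members of 2 or more libraries.

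Of 5166 genes tested on these sums, 522 rose (10.1%) and 481 fell (9.31%) from E6.75 to E7.5 at an adjusted p under 0.05, which is 19.4% of the genes tested. Counts of called genes in the lists below are to be read against these shares. Levels are CPM, the counts in 1000000 nuclear transcripts, summed over a library's Foxa2 cells, given as mean ± SD over libraries, with n = 6 for E6.75 and n = 8 for E7.5. Fold changes are log2 of E7.5 over E6.75 with their standard error (SE), and adjusted p-values are from edgeR's quasi-likelihood test with Benjamini-Hochberg adjustment over all genes tested. In such sums, fewer cells with a transcript and less RNA per cell cannot be told apart. The median log2 fold change over all genes was 0.02. In cells with at least 2 Foxa2 transcripts 530 genes passed. For 285 genes (5.52%) the library ranges of the 2 stages did not overlap, with 77 (1.49%) higher at E7.5 and 208 (4.03%) lower.

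**Figure D1:**
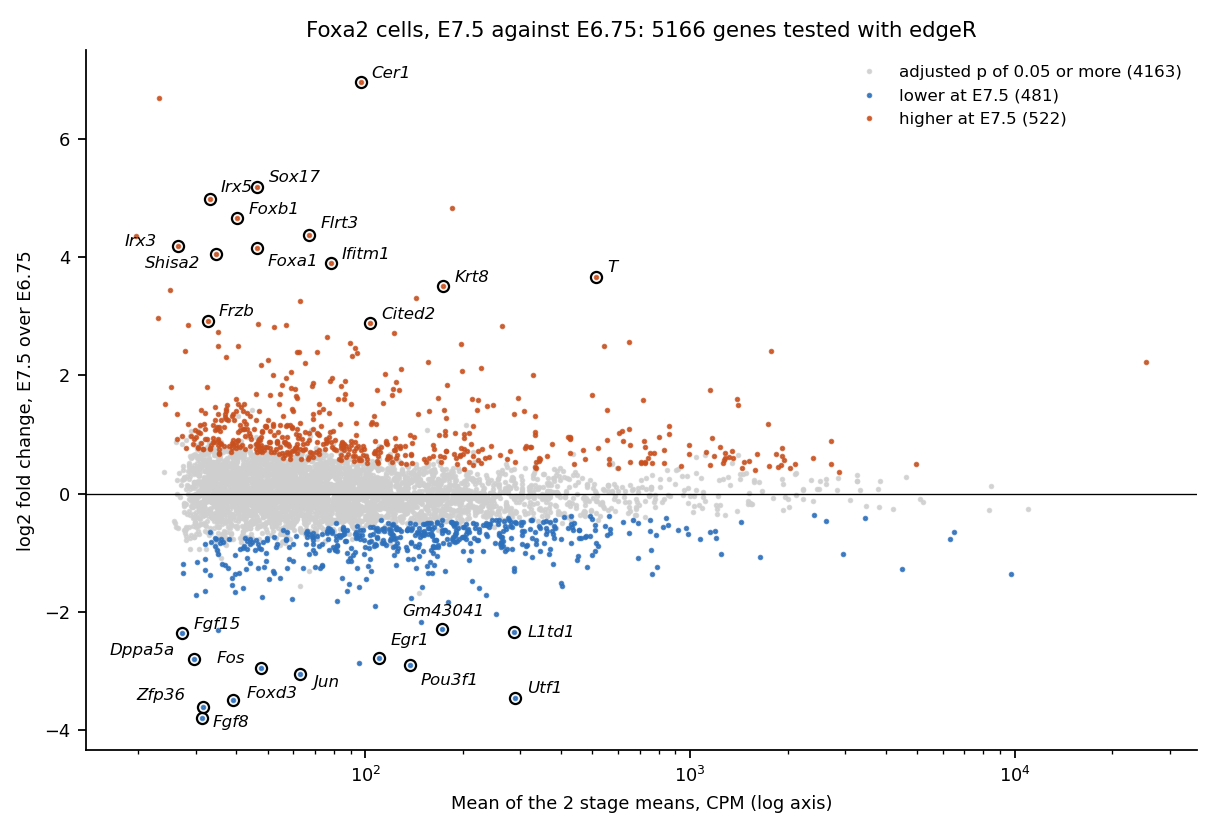
Stage difference in Foxa2 cells for the 5166 genes tested. The x axis is the mean of the 2 stage means in CPM (log axis) and the y axis the log2 fold change of E7.5 over E6.75, with one dot per gene, orange for the 522 genes that rose and blue for the 481 that fell. Ringed genes are T and the 12 largest rises and 12 largest falls among genes that passed, had separate library ranges and reached 20 CPM at the higher stage. Cer1, at 6.96, stands highest and Fgf8, at -3.80, lowest of the ringed genes.

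The largest rise and one of the largest falls are shown with the 250 bases upstream of their start (RefSeq, GRCm38.p6), so that their promoters can be read side by side. The groups of largest rises and falls were set by their fold changes, and shared control of their genes was not tested. The Cer1 promoter, chr4:82885152-82885401 on the minus strand, is printed with a TAATTA homeodomain motif in capitals. The Foxd3 promoter, chr4:99656049-99656298 on the plus strand, has a TGACGTCA cyclic AMP response element in capitals.
Cer1: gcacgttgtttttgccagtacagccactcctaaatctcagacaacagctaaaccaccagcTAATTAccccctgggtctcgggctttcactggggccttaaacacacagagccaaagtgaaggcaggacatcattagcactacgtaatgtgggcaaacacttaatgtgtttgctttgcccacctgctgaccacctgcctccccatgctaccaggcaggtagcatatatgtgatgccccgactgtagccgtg
Foxd3: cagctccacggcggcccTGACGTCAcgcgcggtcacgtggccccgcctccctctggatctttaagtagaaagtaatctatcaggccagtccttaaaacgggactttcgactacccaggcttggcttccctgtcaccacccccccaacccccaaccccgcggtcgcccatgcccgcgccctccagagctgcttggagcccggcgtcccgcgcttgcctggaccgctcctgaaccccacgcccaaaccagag
The table held 9 of the 12 largest rises and 6 of the 12 largest falls, and 4 motifs were searched on both strands. The forkhead motif TGTTTAC occurred in 1 of the 9 rising promoters (Foxa1, as GTAAACA 141 to 135 bases upstream) and 0 of the 6 falling ones, against 3.17% of all 32851 promoters. TAATTA occurred in 1 of 9 (Cer1, 190 to 185 bases upstream) and 0 of 6, against 4.84%. The Otx motif TAATCC occurred in 1 of 9 (Ifitm1, as GGATTA 80 to 75 bases upstream) and 0 of 6, against 6.25%. TGACGTCA occurred in 0 of 9 and 1 of 6 (Foxd3, 233 to 226 bases upstream), against 1.55%. None of the 4 motifs was found in more than 1 promoter of either group.

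Of the genes of definitive endoderm, Cer1, Sox17, Foxa1 and Hhex were at 0 to 8.79 CPM in the E6.75 libraries and were present in each tested library at E7.5. Others were already well expressed at E6.75, with Otx2 at 304.6 to 539 CPM and Trh at 32.2 to 155 CPM, and the 16 listed genes summed to 374.9 to 832 CPM at E6.75 and 652 to 1830 CPM at E7.5. Of these 16 genes 6 could be tested, and 4 rose (Cer1, Sox17, Foxa1 and Cpm), Otx2 fell and Trh did not pass (1.08, adjusted p = 0.0572). The median log2 fold change of the 6 was 3.21 (0.02 over all genes). Cer1, Sox17 and Foxa1 had enough counts for the fit through E7.5 alone, so this median does not speak for the 16 listed genes. Cer1, a secreted inhibitor of NODAL, BMP and WNT ligands, lies on chromosome 4 at 82881751 to 82885148 (minus strand). It was at 0 to 2.33 CPM in the 6 E6.75 libraries (median 0.609) and at 42.5 to 381 CPM in the 8 E7.5 libraries (median 199). That is the largest rise among the genes with separate ranges, from 0.926 ± 1.08 to 192.3 ± 123 CPM (log2 6.96, SE 0.541, adjusted p = 7.83e-09). The size of this rise depended on the visceral endoderm limit. Once the cells beyond it were let in, the log2 fold change of Cer1 was 2.88 (adjusted p = 5.25e-05).

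Sox17, the SOX factor gene of endoderm (chromosome 1, 4490931 to 4497354, minus strand, overlapped on the other strand by Gm37587), was at 0 to 5.03 CPM at E6.75. At E7.5 it was 29.0 to 301 CPM with a median of 54.4, and the highest library was replicate 12. The rise was 5.19 on the log2 scale (SE 0.607, adjusted p = 1.28e-06). Foxa1, a close relative of Foxa2 (chromosome 12, 57540628 to 57546916, minus strand), went from 0 to 8.79 CPM up to 40.8 to 156 CPM (log2 4.16, SE 0.365, adjusted p = 4.90e-08). Without the visceral endoderm limit the rises were 3.31 for Sox17 (adjusted p = 2.02e-05) and 2.41 for Foxa1 (adjusted p = 1.42e-05). The ranges of Cer1, Sox17 and Foxa1 were separate. Hhex, a homeobox gene of anterior endoderm, had too few counts for the test, at 0.966 ± 1.57 and 25 ± 17.7 CPM, and its ranges were separate too (0 to 4.02 and 5.39 to 58.0 CPM). Hhex and Foxd4, a forkhead gene that went from 0.640 ± 0.993 to 73.5 ± 60.5 CPM, are named here after their values were seen.

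Visceral endoderm shares several of these genes, so its other markers are given beside them. The 15 markers that the rule did not use summed to 100.6 to 190 CPM at E6.75 and 194 to 521 CPM at E7.5. Of the 3 genes in the rule, Ttr was at 0 to 8.15 CPM at E6.75 and 0 to 2.37 CPM at E7.5, and Apoa1 at 0 to 13.97 and 0 to 13.6 CPM. Spink1, a protease inhibitor gene, was at 0 to 15.1 CPM at E6.75 and 3.62 to 109 CPM at E7.5, and the limit bounds its level in every member. At E7.5 it was found in 13 Foxa2 cells, of which 11 also had Sox17 and 11 had Cer1. At E6.75 it was found in 24 cells, 0 of them with Sox17 and 2 with Cer1. The part of Spink1 cells in the stage differences was not tested. Most of the sum of the 15 other markers was Apoe, an apolipoprotein gene of many cell types, which rose from 96.5 ± 18.3 to 253 ± 93.5 CPM (log2 1.41, adjusted p = 3.50e-05). Apoa4, Apob, Apoc2, Amn, Soat2 and Slc2a2 were at 0 in the E7.5 sums, and Afp averaged 2.25 and 0.453 CPM. With the limit on Ttr, Apoa1 and Spink1 lowered to 2 per 10000, 950 genes passed in place of 1003, and of the 24 genes with the largest rises and falls 20 were tested and passed. The other four, Sox17, Irx5, Irx3 and Shisa2, had too few counts for that fit.

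**Figure D2:**
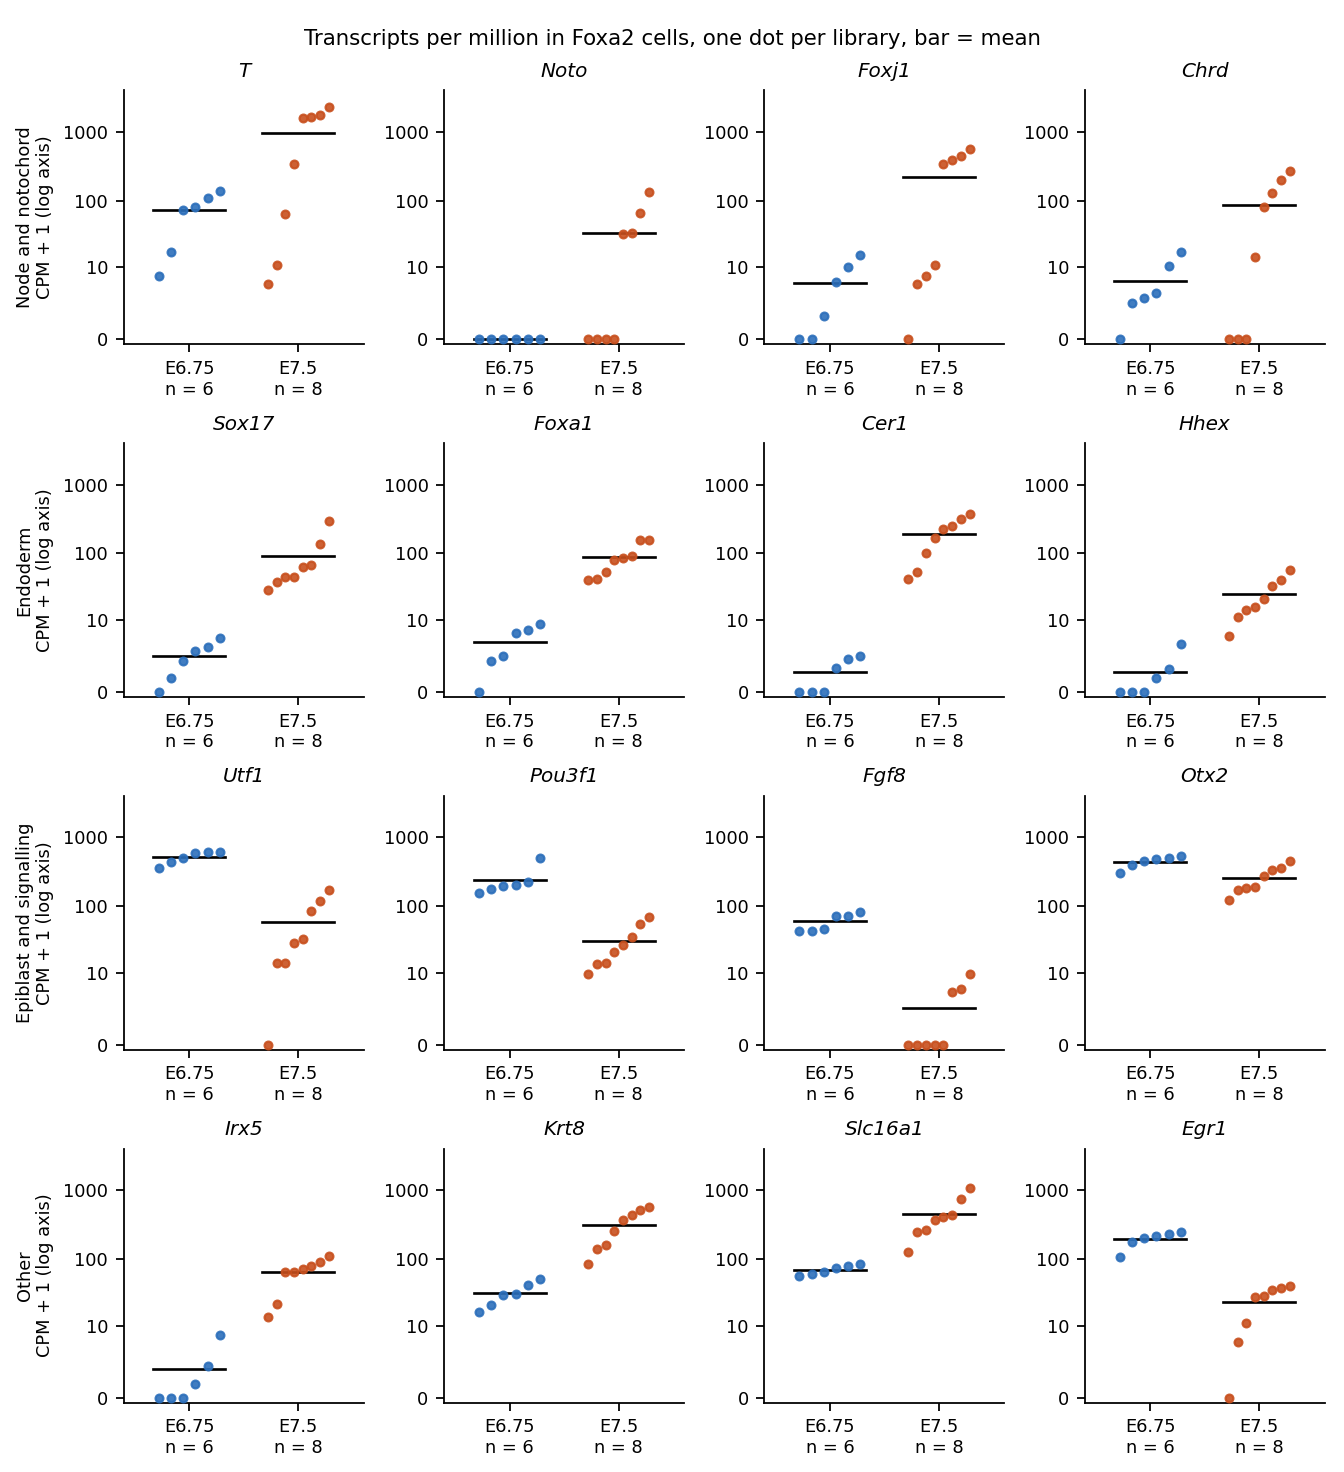
Levels of 16 genes in Foxa2 cells, in CPM + 1 on a log axis, with one dot per library (blue, 6 at E6.75, orange, 8 at E7.5, ordered by value) and the mean as a bar. Sox17, Foxa1, Cer1 and Hhex were higher in every E7.5 library than in any E6.75 library, whereas T, Noto, Foxj1 and Chrd fell into high and low E7.5 libraries.

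Genes of the node and notochord differed among the E7.5 libraries more than between the stages. T (Brachyury, a T-box factor gene of streak and notochord, chromosome 17, 8434423 to 8442496, plus strand) was at 7.19 to 141 CPM at E6.75 with a median of 77.7. At E7.5 it was 1760, 1600, 1630 and 2244 CPM in replicates 1 to 4, and 63.7, 341, 10.8 and 5.37 CPM in replicates 6, 7, 8 and 12. Replicates 1 to 4 and 7 thus lay above every E6.75 library, and the other three lay within or below the E6.75 range. Over all libraries T rose from 71.9 ± 51.9 to 957 ± 937 CPM (log2 3.67, SE 0.748, adjusted p = 0.00123).

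Foxj1, the forkhead gene of motile cilia in the node, showed the same libraries apart. It was 384, 339, 558 and 449 CPM in replicates 1 to 4, and 0, 7.20, 10.8 and 5.37 CPM in replicates 6, 7, 8 and 12, against 0 to 15.8 CPM at E6.75. Chrd, a secreted BMP inhibitor gene of the node, was 268, 128, 201 and 81.6 CPM in replicates 1 to 4, 14.4 CPM in replicate 7 and 0 in replicates 6, 8 and 12, against 0 to 17.1 CPM at E6.75. Noto, a notochord homeobox gene, was found in replicates 1 to 4 alone, at 32.6, 33.2, 67.0 and 136 CPM. No label tells replicates 1 to 4 from the others, so this split was not tested.

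These genes had too few counts in too many libraries for the fit. Pooled over the stage, Noto had 39 transcripts at E7.5 against 0 at E6.75 (at least 34.6-fold higher, with the floor of 3 counts set over the stage). Without E6.75 replicate 2_13, the largest library, this bound was 22.1-fold. Nog, another BMP inhibitor gene, had 80 against 2 transcripts (ratio 107, 95% counting interval 28.6 to 895). Of the 80 transcripts 50 came from replicate 2, without which the ratio was 53.2, and replicates 6, 7, 8 and 12 had none. Without E6.75 replicate 1_10, which held 1 of the 2 transcripts of that stage, it was 197. Shh, the hedgehog ligand of the notochord, had 6 against 0 (at least 5.33-fold higher, and at least 3.39-fold without E6.75 replicate 2_13). Of 17 listed node and notochord genes 3 could be tested, of which T and Rfx3, a factor gene for cilia, rose (Rfx3 log2 1.51, adjusted p = 0.00855) and Ptch1 gave 0.17 (adjusted p = 0.814). Gsc, a homeobox gene of the anterior streak and prechordal plate, averaged 26.7 ± 35.2 and 11.8 ± 21.7 CPM, with overlapping ranges and no test. Lhx1, a LIM homeobox gene of the same tissues, gave 42.2 and 84.1 CPM (log2 0.51, adjusted p = 0.747). At E6.75, 230 CPM of it came from replicate 2_14, where 1 cell held 218 transcripts, and without that library the log2 fold change was 3.35 (adjusted p = 0.00485).

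Most epiblast genes fell. Of 19 listed genes 16 were tested, 13 fell, 1 rose and 2 did not pass, with a list median of -1.42. The largest falls were in genes of the formative epiblast. Foxd3, a forkhead gene of pluripotent cells, fell from 69.9 ± 23.4 to 8.52 ± 14.4 CPM (log2 -3.49, SE 0.446, adjusted p = 4.59e-06). Utf1, a chromatin protein gene of pluripotent cells, was at 365 to 611 CPM at E6.75 and 0 to 170 CPM at E7.5 (log2 -3.45). Pou3f1, a POU factor gene of late epiblast, was at 155 to 503 and 9.60 to 70.0 CPM (log2 -2.89). L1td1 and Dppa5a, both RNA-binding protein genes of pluripotent cells, fell by 2.34 and 2.80 on the log2 scale, and the ranges of all 5 genes were separate. In cells with at least 2 Foxa2 transcripts Foxd3 fell by 2.25 and Utf1 by 4.58.

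The core pluripotency factors changed less. Nanog fell from 146 ± 47.1 to 60.6 ± 26.1 CPM (log2 -1.11, adjusted p = 0.00164) and Pou5f1 from 424 ± 109 to 245 ± 64.4 CPM (log2 -0.78, adjusted p = 0.00346). Sox2 was at 79.1 to 145 CPM and 14.5 to 361 CPM and did not pass (log2 -0.63, adjusted p = 0.320). Otx2, a homeobox gene of epiblast and anterior endoderm, fell from 447 ± 85.7 to 262 ± 112 CPM (log2 -0.83, adjusted p = 0.0110), but in cells with at least 2 Foxa2 transcripts the change was -0.46 (adjusted p = 0.378). Of 8 DNA methylation genes 6 were tested, and Dnmt3a (log2 -1.52), Dnmt3b (-1.03) and Tet1 (-1.26) fell.

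Among 15 primitive streak genes 9 were tested, 4 rose and 3 fell. Beside T, those that rose were Sp5, a WNT target, Fst, an activin inhibitor gene, and Frzb, a secreted WNT inhibitor gene. Fst missed the threshold with DESeq2 (adjusted p = 0.0518) and in cells with at least 2 Foxa2 transcripts (adjusted p = 0.325). Eomes, the T-box factor gene of streak and endoderm formation, fell from 350 ± 191 to 97.8 ± 114 CPM (log2 -1.60, adjusted p = 0.0121). At E7.5 it was 333 and 213 CPM in replicates 1 and 2 and 13.6 to 67.0 CPM in the other 6. The fall of Eomes missed the threshold with at least 5 cells per library (-1.38, adjusted p = 0.0826) and with at least 2 Foxa2 transcripts per cell (-1.16, adjusted p = 0.202).

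Of the 20 FGF pathway genes listed 9 were tested, with 6 lower, Spred1 higher and a median of -1.02 over those tested. The ligand gene Fgf8 went from 43.1 to 82.7 CPM down to 0 to 9.48 CPM (log2 -3.80, SE 0.422, adjusted p = 6.57e-07). It had enough counts for the fit through E6.75 alone, so the list median does not speak for the 20 listed genes. Fgf5 (log2 -1.58) and Fgf15 (-2.36) also fell, as did the feedback and target genes Dusp6 (-1.02), Spry4 (-1.66) and Etv5 (-0.90). The last 3 missed the threshold in cells with at least 2 Foxa2 transcripts (adjusted p = 0.226, 0.0602 and 0.273). The receptor gene Fgfr1 gave 0.35 (adjusted p = 0.271).

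In the NODAL list, 7 of 20 genes were tested. The coreceptor gene Tdgf1 (log2 -2.03, adjusted p = 0.128 with DESeq2) and the SMAD repressor gene Skil (-1.90) fell, and the inhibitor gene Cer1 and the receptor gene Acvr2b (0.56, adjusted p = 0.0486) rose. Acvr2b lay so near the threshold that 17 of 25 alternatives put it on the other side. The ligand gene Nodal was at 51.2 to 90.1 CPM at E6.75. At E7.5 its median was 7.83 CPM and its highest library, replicate 3, reached 346 CPM, so the groups overlapped and it did not pass. Without replicate 3 its log2 fold change was -1.40 (adjusted p = 0.0392). In the WNT list 4 of 10 tested genes rose, namely Sp5 (2.40), the inhibitor gene Nkd1 (2.73) and the secreted antagonist genes Sfrp1 (2.72) and Frzb (2.92), and the repressor gene Tcf7l1 fell (-0.88). Sfrp1 is the gene of this group that depended on the visceral endoderm limit, with 0.05 (adjusted p = 0.952) once the cells beyond it were let in. In the BMP list 0 of 5 tested genes passed, against 19.4% of all genes tested, and 5 genes are too few to set the list apart.

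Of 17 epithelial genes 9 were tested, and Krt8 (log2 3.51), Krt18 (2.53) and Cldn6 (0.80) rose and 0 fell. Krt8, a keratin gene of simple epithelia, was at 16.5 to 50.3 CPM and 84.9 to 571 CPM. Without the visceral endoderm limit Krt8 gave 1.67 and Krt18 1.39, and Cldn6 (adjusted p = 0.213) did not pass. Cdh1, the E-cadherin gene, was at 320 ± 69.1 and 354 ± 121 CPM (log2 0.24, adjusted p = 0.412). Of 5 mesenchymal genes tested, Vim (2.46), Fn1 (1.75) and Tcf4 (0.72) rose and 0 fell. Of 9 basement membrane and matrix genes tested, Col4a1 (2.40), Sparc (0.94), Fn1 and Serpinh1 (0.92) rose. Once the cells beyond the visceral endoderm limit were let in, Col4a1 (adjusted p = 0.0615), Sparc (adjusted p = 0.782) and Serpinh1 (adjusted p = 0.260) did not pass. Flrt3, an adhesion protein gene, rose from 6.55 ± 1.82 to 128 ± 47.3 CPM (log2 4.38, adjusted p = 3.10e-10), and without the limit by 1.09 (adjusted p = 0.00886).

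Some of the largest rises were in genes known from anterior ectoderm and neural plate, but the cells that held them were of several kinds. At E7.5, 17 of the 20 Foxa2 cells with Foxb1 also had T, and 4 had Sox17. Among all 48 Foxa2 cells of E7.5, T was found in 36 and Sox17 in 18, so T with Foxb1 was near its overall share. In replicate 7, 1 cell with 17.0 Irx5 transcripts had 23 Sox17 UMIs and another with 28.1 had 0. This was not tested. Of 7 ectoderm genes tested (11 listed), Irx5, Foxb1, Irx3 and Sall3 rose, and Zic2 and Zic5 fell. Irx5, Foxb1 and Irx3 had enough counts for the fit through E7.5 alone, so these directions do not speak for the 11 listed genes. In cells with at least 2 Foxa2 transcripts Zic2 (adjusted p = 0.193) and Zic5 (adjusted p = 0.164) did not pass. Irx5, an Iroquois homeobox gene, went from 0 to 7.04 CPM up to 13.6 to 113 CPM (log2 4.99, adjusted p = 5.31e-07). Foxb1, a forkhead gene of neural tissue, went from 0 to 14.4 CPM up to 21.2 to 136 CPM (log2 4.66, adjusted p = 3.47e-08). Cells without Foxa2 and Mesp1 had like levels of both, 0.483 and 59.9 CPM for Irx5 and 1.88 and 95.9 CPM for Foxb1. The caudal genes Hoxb1 (0.538 and 87.2 CPM) and Nkx1-2 (1.42 and 90.9 CPM) had separate ranges and too few counts at E6.75 for the test. Irx3 and Foxb1 overlap an annotated transcript on the other strand (Irx3os and B230323A14Rik), and the use of strand in counting is not given in the sources used here.

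Further lists held genes of metabolism, division and the response to handling. Over all genes tested 10.1% rose and 9.31% fell, and whether a list differed from this was not tested. Of 17 glycolysis and lactate genes tested, 6 rose and 2 fell. The glucose transporter genes Slc2a1 (251 ± 54.8 to 748 ± 188 CPM, log2 1.67) and Slc2a3 (log2 2.56) and the lactate transporter gene Slc16a1 (log2 2.83) rose, and without the visceral endoderm limit Slc2a3 gave 1.43 and Slc16a1 1.15. Ldha, the lactate dehydrogenase gene, gave -0.09 (adjusted p = 0.667). Of 11 cholesterol synthesis genes tested 0 rose and 4 fell, Idi1 by 1.25 on the log2 scale. Of 24 S and G2/M genes tested 0 rose and 5 fell, Top2a by 0.96, and among the G1 genes Ccnd2 rose (log2 3.31) where Ccnd1 (-0.91) and Ccne1 (-1.21) fell. Of 9 immediate early and heat shock genes tested 7 fell, among them Egr1 (107.8 to 245 CPM, then 0 to 39.8 CPM, log2 -2.78), Zfp36 (-3.61), Jun (-3.05), Fos (-2.94) and Hsp90aa1 (-0.65). The other way, 1 rose, the heat shock gene Hspa8 (log2 0.67 to 1.15 over the alternatives, with the call lost in 5 of them). Immediate early genes answer to handling and to FGF signals. Picking by hand went with E6.75 and sorting with E7.5, and neither can be told apart from stage here.

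Markers of mesoderm, extraembryonic ectoderm, and blood and endothelium were low in most libraries, but those of ectoderm were not. The 11 ectoderm markers summed to 357.3 to 560.5 CPM at E6.75 and 511.9 to 648.3 CPM at E7.5. Sox2 without T was found in 10 of 48 Foxa2 cells at E7.5, with a median of 1 Foxa2 transcript. The 14 mesoderm markers other than Mesp1 summed to 0 to 45.1 CPM at E6.75 and 21.2 to 207 CPM at E7.5, and the 13 extraembryonic ectoderm markers to 18.4 to 272 and 42.5 to 150 CPM. The 14 blood and endothelium markers summed to 14.4 to 34.2 and 16.1 to 690 CPM. The highest of these was replicate 2, where a single cell with 1 Foxa2 UMI held all 62 transcripts of the globin gene Hbb-bh1. The part of these cells in the stage differences was not tested.

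Detection per cell was compared at equal depth by thinning each cell to 2000 transcripts, for 10 genes with exact permutation tests over libraries, adjusted over the 10. Cells with a Sox17 transcript went from 0.390% ± 0.407 (SD, n = 6) to 14.5% ± 10.6 (n = 8) and cells with Cer1 from 0.191% ± 0.242 to 22.7% ± 11. Nanog fell from 25.3% ± 2.34 to 9.75% ± 5.18. Each of the 3 gave an adjusted exact permutation p of 0.00222, from a raw p of 0.000666, the smallest these libraries allow. Otx2 fell from 55.7% to 32.8% (adjusted exact permutation p = 0.00833) and Eomes from 39.2% to 13.8% (0.0187). T gave 11.3% ± 7.49 and 36.7% ± 29.2 (adjusted exact permutation p = 0.127), Chrd 1.12% and 15.3% (0.134), Lhx1 3.92% and 13.6% (0.181), Sox2 20.3% and 16.3% (0.508) and Cdh1 46.6% and 44.4% (0.755). In cells with at least 2 Foxa2 transcripts 2 of the 10 passed, Sox17 and Cer1. Without thinning, Sox17 was found in 6.93% and 45.3% of cells and Cer1 in 4.23% and 43.9%.

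**Figure D3:**
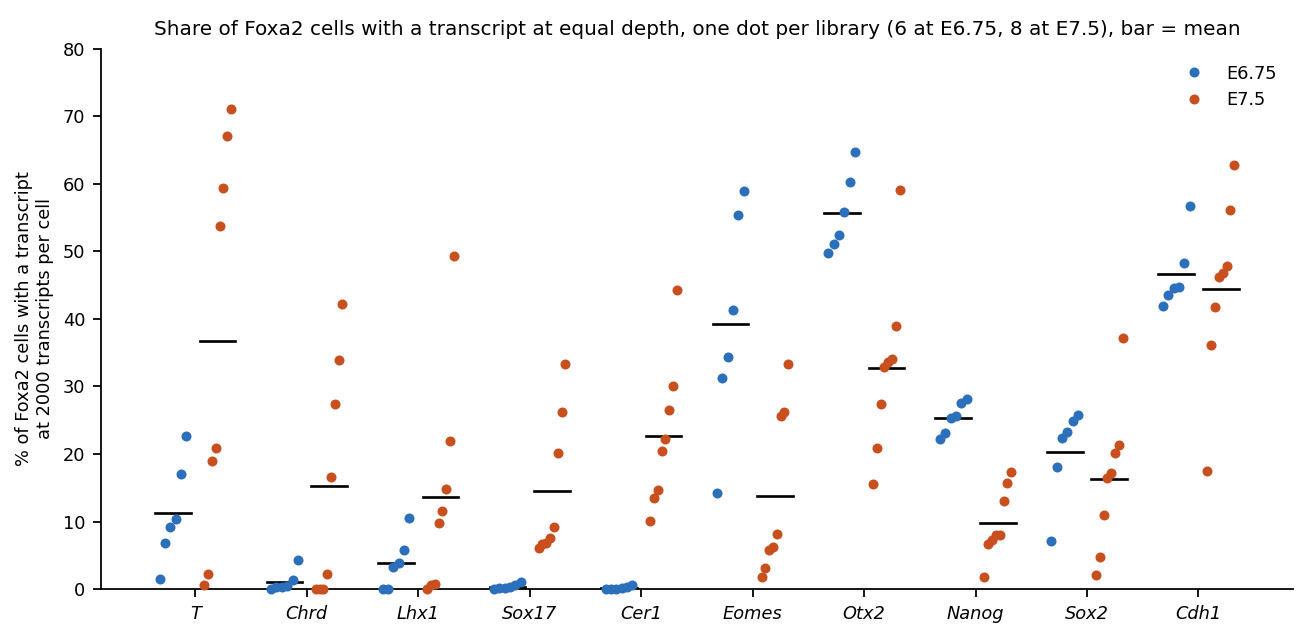
Share of Foxa2 cells with a transcript of 10 genes after thinning to 2000 transcripts per cell, in percent, one dot per library (blue, 6 at E6.75, orange, 8 at E7.5) and the mean as a bar. Sox17, Cer1 and Nanog separate the stages completely, and T at E7.5 spans 0.662 to 71.0%.

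Cells with a transcript of 1 or both of 2 genes were counted among the Foxa2 cells. At E7.5, T and Sox17 transcripts occurred together in 13 of 48 Foxa2 cells, T alone in 23, Sox17 alone in 5 and neither in 7. In each of these 13 cells T was at 6 UMIs or fewer or Sox17 was at 1 UMI. In replicate 7, for example, 1 cell had 31 Sox17 UMIs and 6 T UMIs, and another had 1 and 130. At E6.75 the counts for both, T alone, Sox17 alone and neither were 3, 41, 2 and 33 of 79. Cer1 was found in 14 of the 18 Sox17 cells at E7.5. Foxj1 and Sox17 were found together in 5 cells, with 16 that had Foxj1 alone and 13 that had Sox17 alone. Each of the 5 held only 1 Foxj1 transcript. All 10 Noto cells also had Foxj1, and all 20 Chrd cells had T. These are shares of cells with a transcript at unequal depth and were not tested.

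The background for such shares is given by cells without Foxa2 and Mesp1. Noto was found in 10 of 48 Foxa2 cells at E7.5 (20.8%, median depth 35844 transcripts) and in 2 of 242 cells without Foxa2 and Mesp1 (0.826%, median depth 23987). At E6.75 it was found in 0 of 79 Foxa2 cells, which, for cells with a Noto UMI and by counting error over the pooled cells of 6 libraries alone, allows a share of up to 3.80%. Foxj1 was found in 43.8% and 7.85% of the 2 groups of cells at E7.5, Foxa1 in 45.8% and 3.72%, and Hhex in 35.4% and 7.44%. Foxa2 cells were thus above the other cells for each of these 4 genes at E7.5, at a median depth that was also higher.

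Foxa1 and Hhex were found most often in cells with many Foxa2 UMIs at E7.5, and Gsc at E6.75. At E7.5, Foxa1 was found in 0 of 18 cells with 1 Foxa2 UMI, 7 of 15 with 2 to 9 and 15 of 15 with 10 or more. At E6.75 it was found in 2 of 30, 4 of 27 and 7 of 22. Hhex was found in 2, 3 and 12 cells of the same E7.5 classes and in 2, 0 and 3 at E6.75. Gsc was found in 5, 10 and 17 cells at E6.75 and 1, 2 and 4 at E7.5. Utf1 was found in 10, 5 and 3 cells at E7.5 and in nearly every cell (78 of 79) at E6.75. Median depth in these classes was 54145, 67623 and 59003 transcripts at E6.75 and 37688, 11957 and 45778 at E7.5, so the middle E7.5 class was the shallowest. Hhex, Foxa1 and Foxj1 per cell were looked at after their sums were seen.

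**Figure D4:**
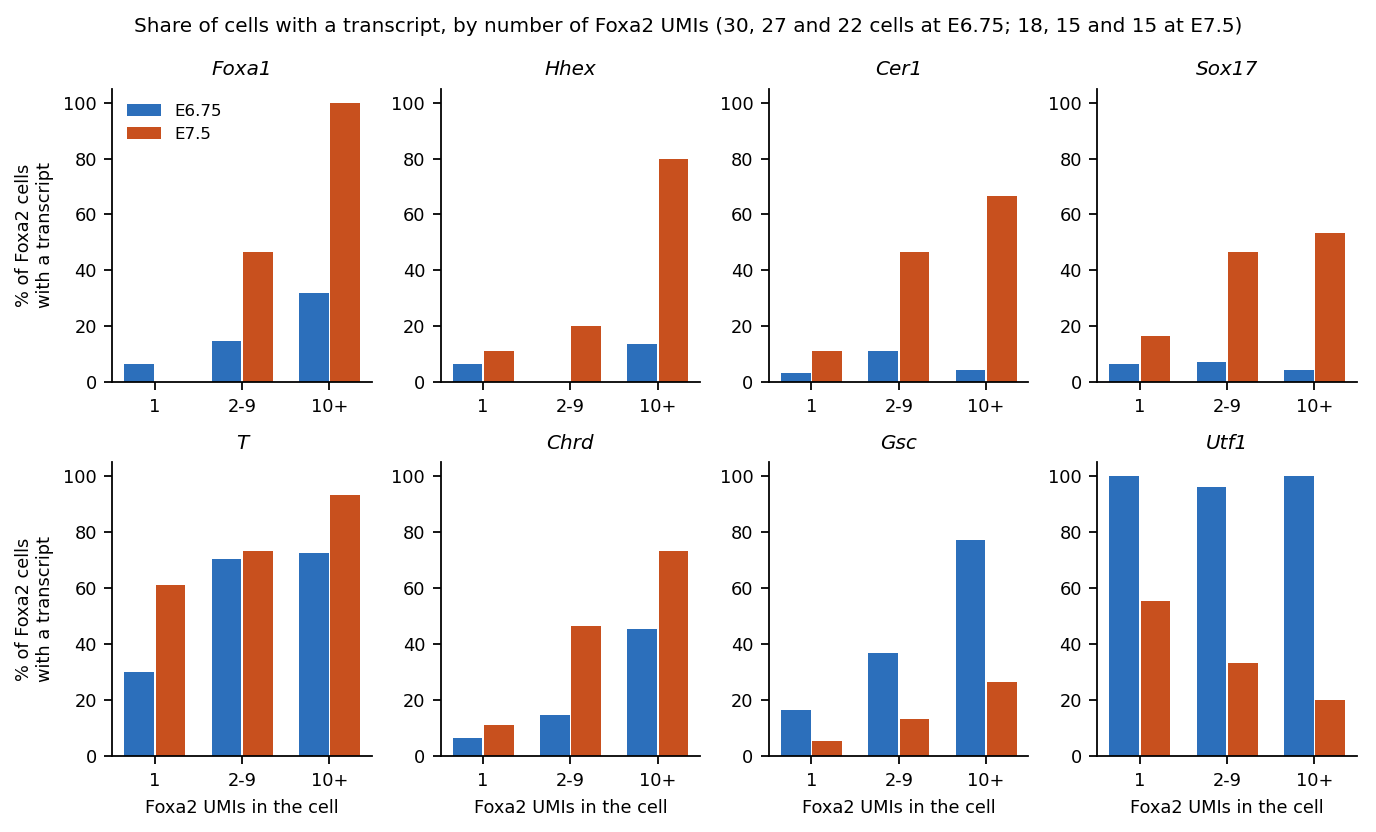
Share of Foxa2 cells with a transcript of 8 genes, in percent of cells, by the number of Foxa2 UMIs in the cell (1, 2 to 9, 10 or more), blue for E6.75 (30, 27 and 22 cells) and orange for E7.5 (18, 15 and 15 cells). The E7.5 bar of Foxa1 runs from 0 to 100%, and Gsc is the gene whose bars are higher at E6.75 in each class beside Utf1.

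Whether the stage difference was particular to Foxa2 cells was tested against the cells without Foxa2 and Mesp1 transcripts of the same libraries, 369 cells of E6.75 and 242 of E7.5, as an interaction with the library as a block. Of 8051 genes tested 59 passed (0.733%), 38 with a higher stage difference in Foxa2 cells (0.472%) and 21 with a lower one (0.261%). The count fell to 32 without E6.75 replicate 2_13, 33 without 2_9, 37 without 2_14, and 34, 35 and 37 without E7.5 replicates 1, 3 and 4. Most stage differences named above did not pass this test, among them Cer1 (2.38, adjusted p = 0.885), Sox17 (2.22, adjusted p = 0.570), Foxa1 (3.03, adjusted p = 0.344) and Utf1 (-1.17, adjusted p = 0.0976). Missing this threshold does not show that a gene changed alike in both kinds of cells. As library means after thinning to equal depth, Sox17 was found in 0.155% and 0.579% of the other cells at E6.75 and E7.5. In Foxa2 cells these shares were 0.390% and 14.5%. Cer1 gave 0.273% and 2.08% in the other cells and 0.191% and 22.7% in Foxa2 cells. Shares were not compared between the kinds of cells by a test. T was 18.8 and 262 CPM in the other cells, with an interaction of -0.12 (adjusted p = 0.996).

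The lactate transporter gene Slc16a1 and the gene Emb stood out, and a link between them was not tested. Slc16a1, which moves lactate and pyruvate across the membrane, was at 55.7 to 83.4 CPM at E6.75 and 127 to 1073 CPM at E7.5 in Foxa2 cells, and at 57.5 ± 12.1 and 86.8 ± 23.1 CPM in the other cells (interaction log2 2.10, SE 0.223, adjusted p = 6.88e-07). Emb encodes embigin, a membrane protein that accompanies such transporters, and was named after its value was seen. It was at 768 ± 131 and 2035 ± 662 CPM in Foxa2 cells and 690 ± 67.1 and 602 ± 123 CPM in the others (1.63, SE 0.155, adjusted p = 9.66e-08). At E6.75 the library ranges of the 2 kinds of cells overlapped for both genes, and at E7.5 those of Emb did not. Without the visceral endoderm limit the Slc16a1 interaction was 0.58 (adjusted p = 0.393). The highest Slc16a1 counts came from Sox17 cells. Each E7.5 Foxa2 cell with at least 54 Slc16a1 transcripts had 6 or more Sox17 UMIs. All of these in tested libraries also had Spink1. Cells without Sox17 stayed below that level, and so did some Sox17 cells. Replicates 1, 3, 4 and 6 held no cell at that level, yet each tested E7.5 library lay above the E6.75 range. The part of these cells in the interaction was not tested.

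Of 13 epithelial genes tested for the interaction 3 passed, each with a higher difference in Foxa2 cells, and of 11 mesenchymal genes 2 passed, each with a lower one. The list medians were 0.84 and -0.96, against -0.02 over all genes tested. Cldn6, a claudin gene of early epithelia, was at 245 and 400 CPM in Foxa2 cells and at 279 and 152 CPM in the others (1.78, adjusted p = 1.14e-05). Cdh1 was at 320 and 354 against 357 and 223 CPM (0.87, adjusted p = 0.00265), and Epcam, an epithelial adhesion gene, at 160 and 138 against 193 and 96.2 CPM (0.83, adjusted p = 0.0172). The mesenchymal genes Cdh11 (8.56 and 15.2 against 2.86 and 58.6 CPM, -3.50, adjusted p = 0.0101) and Pdgfra (2.82 and 13 against 1.18 and 51.8 CPM, -3.03, adjusted p = 0.0464) gave a lower difference, and Phlda2, an imprinted gene, gave 24 and 68.4 against 19.8 and 286 CPM (-2.23, adjusted p = 0.00235). All 3 were highest in the other cells of E7.5, which can include the extraembryonic mesoderm kept at that stage alone. The library as a block does not remove such a change in the make-up of the other cells. Its part in these interactions and in the list medians was not tested.

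Among the largest positive interactions were Tmprss2, a membrane protease gene (2.71 and 46.0 CPM in Foxa2 cells, 2.27 and 4.01 CPM in the others, 4.0, adjusted p = 0.0372), Rabgap1l, a Rab GTPase regulator gene (3.70, adjusted p = 0.00286), and Cpm, a carboxypeptidase gene (2.90, adjusted p = 0.00627). Rabgap1l was at 3.95 and 46.0 against 4.98 and 3.33 CPM. Fgf15 fell in Foxa2 cells from 47.1 to 7.48 CPM and was at 60.0 and 43.2 CPM in the others (-2.13, adjusted p = 0.0106). Mixl1, a homeobox gene of the streak, was at 65.3 and 31.4 against 4.42 and 23.3 CPM (-2.68, adjusted p = 0.0293). Several calls were lost when 1 library was left out. Cdh11 gave -2.68 (adjusted p = 0.174) without E6.75 replicate 2_14, Pdgfra -1.88 (adjusted p = 0.661) without 2_13, Fgf15 -1.79 (adjusted p = 0.0521) without E7.5 replicate 1, and leaving out single libraries ended the call of Tmprss2 in 9 cases, of Pdgfra in 10 and of Mixl1 in 5.

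**Figure D5:**
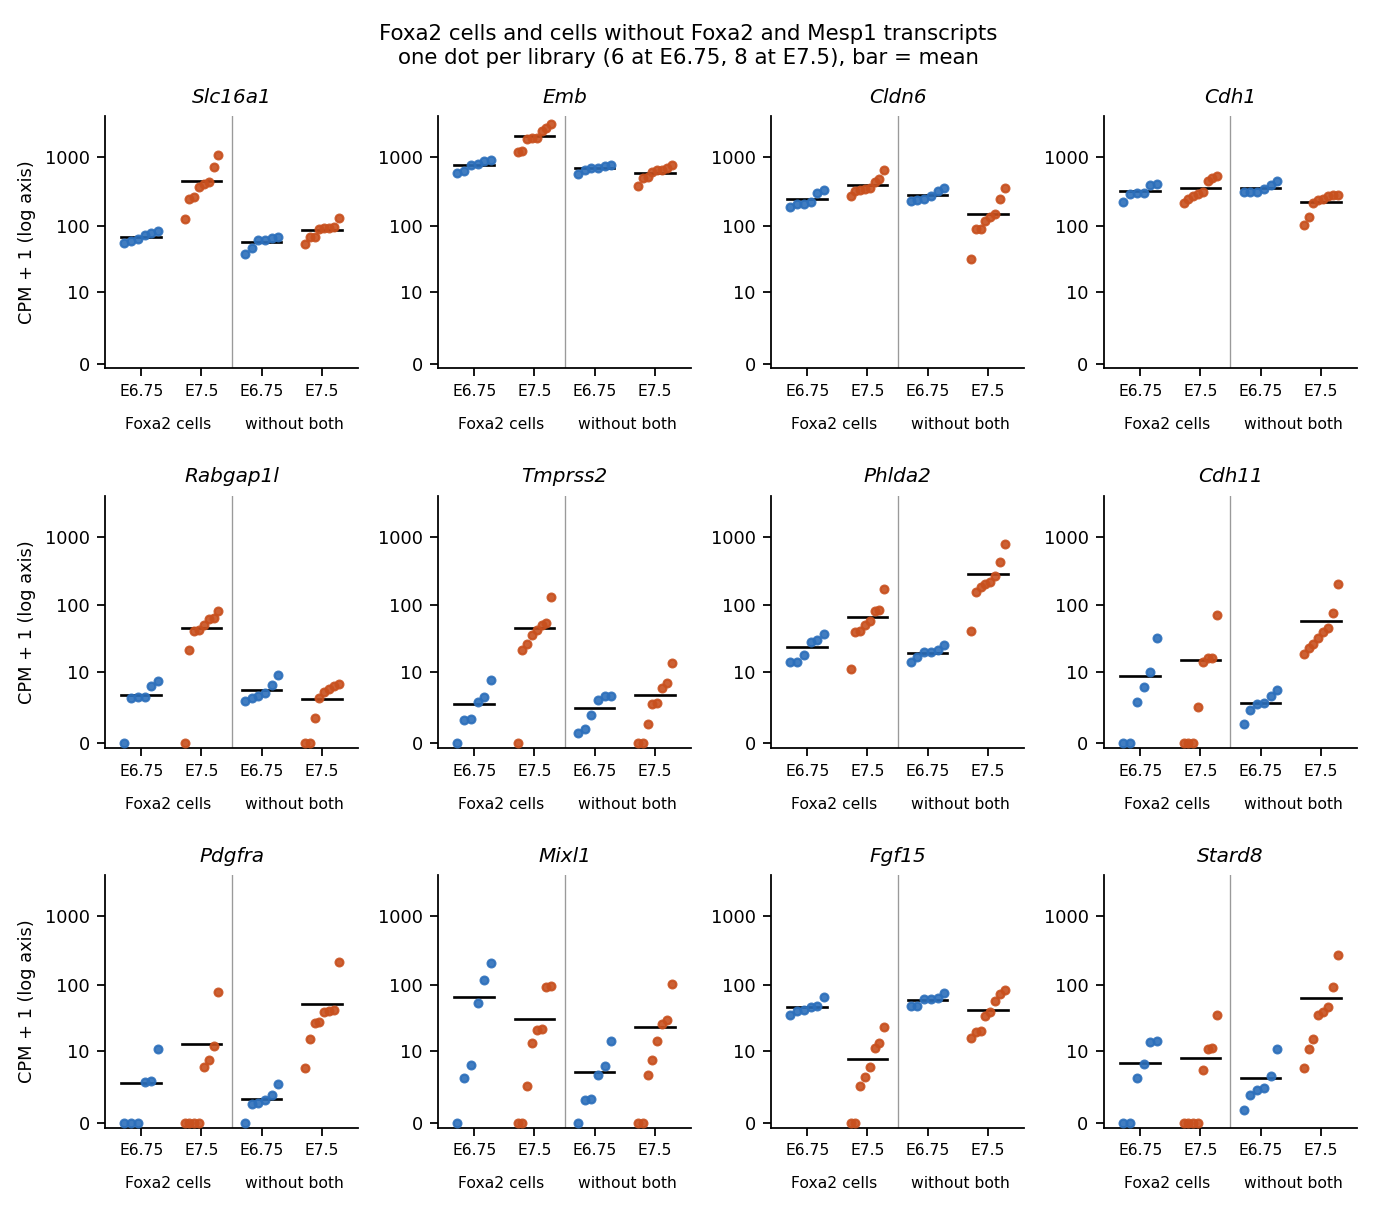
Levels of 12 genes in CPM + 1 (log axis) in Foxa2 cells (left of each panel) and in cells without Foxa2 and Mesp1 transcripts (right), one dot per library (blue, 6 at E6.75, orange, 8 at E7.5) and the mean as a bar. Slc16a1 and Emb are higher at E7.5 on the left, to 456 and 2035 CPM, with 86.8 and 602 CPM on the right, and Phlda2 and Cdh11 are highest at E7.5 on the right.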

How the data were processed

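The authors deposited expected counts, one value for each gene in each cell barcode. Per the file headers there were 192 barcode columns per library, of which 96 were in use. Every nonzero value equals −K ln(1 − k/K) for a whole UMI count k and K = 4096, to within 4.09e-12, so the authors corrected for UMI collisions and applied no depth normalisation. Per the submitters' processing notes, bcl2fastq 2.17.1.14 and BWA 0.6.2-r126 were used.

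Nuclear genes (22997 of 23093 features, without 74 ERCC and 22 mitochondrial features) were summed per library over Foxa2 cells, and rounded. Libraries with 3 or more such cells were compared with edgeR 4.0.16 (TMM, filterByExpr, quasi-likelihood test) in R 4.3.3. The interaction used the Foxa2 cells and the cells without both transcripts, with the library as a block. DESeq2 1.42.0 was an alternative. On simulated counts the stage comparison recovered 85.6% of 2-fold and 100% of 4-fold changes, and the interaction 41% and 100%. Of the interaction's calls 7.87% were false at 2-fold and 3.38% at 4-fold, and of the stage comparison's 3.75% and 3.30%. The simulation gave all genes the same spread, changed only genes past the low-count filter and drew both sums of a library independently. These rates therefore need not hold for the real libraries. Shares used expected values after thinning, with exact permutation tests (scipy 1.17.1). No doublet caller was run. Replicate libraries of a stage differed beyond sampling noise (chi-square per degree of freedom at least 3.25 at E6.75 and 2.00 at E7.5).

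Named genes were the 12 largest rises and falls with an adjusted p under 0.05, separate library ranges and at least 20 CPM (no sex-linked gene), the 6 highest and 6 lowest interactions, the called and 4 most abundant members of each list, and 16 fixed genes. One listed gene that this rule names is not reported here. The members, lists and rules were chosen with earlier results of these data known. E7.5 replicate 5 had no Foxa2 cell, and replicates 9, 10 and 11 had 1, 1 and 2, which entered counts of cells but no test.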

Additional observations from a re-analysis of the deposited data

Results flagged for a closer look

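In several groups 1 library stood apart from the rest by Dixon's test at the 95% level, which sets apart about 1 group in 20 by chance. At E7.5 these were Sox17 in replicate 12 (301 CPM), Foxd3 (42.5 CPM), Gsc (63.7 CPM) and Sox2 (361 CPM) in replicate 6, and Gm43041, an unclassified transcript, in replicate 1 (105 CPM). Replicate 6 had 3 Foxa2 cells, so that 1 cell can set its value. At E6.75 they were Lhx1 (230 CPM) and Irx5 (7.04 CPM) in replicate 2_14, Foxb1 (14.4 CPM) and Pou3f1 (503 CPM) in replicate 1_11, and Dppa5a in replicate 2_9 (82.7 CPM).

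The stage difference itself differed between Foxa2 cells and cells without Foxa2 and Mesp1 transcripts, by edgeR's interaction test, for 59 genes. The 6 highest and 6 lowest that reached 20 CPM in a group are given here. On the log2 scale it was higher in Foxa2 cells for Tmprss2 (4.0), Rabgap1l (3.70), 2410004P03Rik (3.69), Gm4076 (3.46), Cpm (2.90) and Capsl (2.73). It was lower for Stard8 (-3.87), Cdh11 (-3.50), Pdgfra (-3.03), Mixl1 (-2.68), Phlda2 (-2.23) and Spin2c (-2.20). Leaving out single libraries ended the call of Capsl in 8 cases, of Spin2c in 6, of Stard8 in 4 and of Gm4076 in 1, beside those given above for Tmprss2, Pdgfra, Mixl1 and Cdh11. Rabgap1l, 2410004P03Rik, Cpm and Phlda2 kept their calls wherever they were tested with 1 library left out. Gm4076 is annotated as a processed pseudogene, whose reads can be shared with its parent gene, so its value is uncertain.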

How the results depend on the processing

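The count of 1003 stage differences (522 higher, 481 lower) was 2079 of 18223 genes without a filter on low counts (1061 higher, 1018 lower), 530 in cells with at least 2 Foxa2 transcripts (272 and 258) and 29 of 174 genes after thinning to 2000 transcripts (17 and 12), and 781 to 1043 when 1 library was left out (403 to 545 higher, 378 to 498 lower). DESeq2 called 998. The interaction count of 59 (38 higher, 21 lower) was 187 without the low-count filter (99 and 88), 6 of 707 after thinning (4 and 2), 105 without the visceral endoderm limit (69 lower), 36 when only prefix 2 libraries stood for E6.75 (24 and 12) and 32 to 65 with 1 library left out (24 to 42 higher, 7 to 23 lower), and DESeq2 called 46. The 5 of 10 shares that passed became 2 with at least 2 Foxa2 transcripts per cell and stayed 5 with any single library left out. The depth difference of -0.70 became -0.72 with means and then passed (exact permutation p = 0.0466). Values turned in sign for Lhx1 (-1.06) and Apoe (-0.28) without the visceral endoderm limit. The Cdh1 share difference of -2.27 percentage points became 3.16 after thinning to 5000, 0.911 with at least 2 Foxa2 transcripts, 6.19 with at least 5 cells per library and -4.90 to 1.58 with 1 library left out (1.58 without E7.5 replicate 6). Apart from fewer genes or cells entering, the cause of these changes was not tested. The 12 largest rises and falls kept their calls wherever they were tested, which was none of the 24 genes after thinning and 16 to 24 in each other alternative. Leaving out 1 library from the pooled ratios of Nog, Noto and Shh was added after the data were seen. No paired analysis was possible because the 2 stages share no replicate numbers in the labels. Libraries with 3 or 4 Foxa2 cells limit what can be seen, and genes under the low-count filter, such as Noto and Shh, have no test.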
